A study of Mus musculus with 21 samples.

Results

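The cholesterol and fatty acid synthesis genes described here are 32 listed genes whose enzymes build sterols, isoprenoids and long-chain fatty acids, together with their regulators. They were chosen by symbol, with earlier results of these data known. All 32 are present among the 20900 gene symbols of the deposited expression table, and all 32 passed the filter on low values that left 14666 genes for testing. By role they comprise 8 mevalonate and isoprenoid enzymes, 11 squalene and sterol enzymes, 8 fatty acid enzymes, and 5 regulators and sterol transport proteins.

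The study treated E14 mouse embryonic stem cells, a line of the 129 strain kept pluripotent in serum medium with the cytokine LIF, with BMH-21 or CX-5461. Each compound blocks RNA polymerase I, which makes the precursor of ribosomal RNA. Each was given at 1 uM in fresh stem cell medium to cells plated the day before. Polyadenylated RNA was sequenced from untreated cells at 0 h (the control) and from cells after 2, 4 or 8 h with either inhibitor, in 3 libraries per group and 21 in all. All groups derive from the same line and medium, and no vehicle-treated group at 2, 4 or 8 h was analysed here, so time in fresh medium and the inhibitor cannot be told apart in any comparison with control. Nothing in the labels says that the 3 libraries of a group came from separate cultures, so p-values are not taken to measure a spread between cultures. They rest on the spread between libraries within groups, pooled over all 21 and drawn mostly from other genes of like expression level. The 6 comparisons with control share the same 3 control libraries.

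Cholesterol is made from acetyl-CoA, which is condensed to HMG-CoA and turned through mevalonate into isoprenoid units. Farnesyl diphosphate is the branch point: it feeds squalene and then sterols, or the lipid anchors of proteins, dolichol and ubiquinone. Fatty acids are built from the same acetyl-CoA by carboxylation and repeated elongation, and are then desaturated. Most of these genes are targets of the SREBP transcription factors encoded by Srebf1 and Srebf2. The precursors of these factors sit in the endoplasmic reticulum membrane, are held there by the INSIG proteins when sterols are plentiful, and are carried by SCAP to the Golgi and cleaved when sterols run low. The released fragment binds sterol regulatory elements, usually next to sites for the CCAAT-binding factor NF-Y or for Sp1. Dividing cells such as embryonic stem cells need these lipids for new membrane.

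Values are log2 expression on the deposited scale, on which a difference of 1 is a 2-fold change. Libraries held 46604397 to 62812641 reads, and the members were counted with 202 reads (Tm7sf2, lowest library) to 62461 reads (Fasn, highest library). Differences were tested with limma, with Benjamini-Hochberg adjustment over all 14666 genes, and a gene is said to have risen or fallen where its adjusted p was under 0.05. Each group was also tested with any 1 of its libraries left out, and where this ended or made a call the libraries are named beside the p-value with the difference without them. The factors that scale the libraries in the deposited values ran from 0.832 to 1.375, against 0.941 to 1.107 for median-ratio factors computed from the recovered reads. They shift whole comparisons. The SEs of the members were also larger on the deposited scale than on the centred and median-ratio scales, from 0.11 against 0.03 in Lss to 0.14 against 0.10 in Tm7sf2. A count can therefore differ between scales through the SE as well as through the difference. The median over all genes tested at 8 h was -0.40 with BMH-21 and 0.11 with CX-5461 as deposited. It was -0.19 and -0.11 once each library was centred on its median, and -0.04 and -0.01 with median-ratio factors. A member's difference is therefore also given on the centred and median-ratio scales where its direction turned. Counts are those of the deposited scale, with those of the other scales beside them. Where quantile normalization, which forces the same distribution on every library, turned a direction, its value stands beside the p-value. Markers of pluripotent cells, among them Pou5f1, Sox2 and Nanog, were all expressed: 9 of 9 listed were tested, and their summed level was 12.40 to 12.61 in control. That sum was 12.13 to 12.27 at 2 h, 11.62 to 11.83 at 4 h and 11.22 to 11.29 at 8 h of BMH-21. With CX-5461 it was 12.01 to 12.25 at 2 h, 11.65 to 11.89 at 4 h and 12.13 to 12.23 at 8 h. Of 7 fibroblast markers 4 (Col3a1, Postn, Lum and Dcn) were below the filter, with Lum at 3 reads or fewer in every library. The summed level of all 7 was 4.93 to 5.12 in control, 5.28 to 5.54 at 8 h of BMH-21 and 5.43 to 5.47 at 8 h of CX-5461. Its members went different ways: from control to 8 h of BMH-21 the mean of Col1a1 went from 3.15 to 5.01, that of Thy1 from 4.48 to 3.07 and that of Dcn from -1.83 to -3.66. The sum of 6 trophectoderm markers, of which Elf5 was below the filter, was 6.65 to 6.81 in control and 7.02 to 7.26 and 7.27 to 7.45 at 8 h of BMH-21 and CX-5461. At 8 h of BMH-21 the mean of Tfap2c, the most abundant of them, was 6.88 against 6.20 in control, while Krt8 (3.71 against 4.00), Krt18 (2.83 against 3.57) and Eomes (1.08 against 2.18) were lower. For 7 primitive endoderm markers, of which Foxa2 was below the filter, the sum was 4.13 to 4.40 in control and 4.21 to 4.50 and 4.48 to 4.54 at 8 h. All these sums and means are on the deposited scale only, so they include its shifts of whole comparisons. The part of these marker shifts in the lipid genes was not tested, and in bulk RNA fewer cells of a type and less RNA per cell cannot be told apart.

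Promoters of 6 members are shown because they carry the CCAAT letters that most of these genes share, in genes that fell at 8 h of BMH-21 (Hmgcs1, Mvd, Ebp, Sc5d and Fasn) and in one that did not (Mvk). Each line gives the 150 bases before the annotated RefSeq start on GRCm38.p6, the mm10 assembly, 5′ to 3′ on the gene's strand, and none of these bases lies in an annotated GENCODE M21 exon. For Hmgcs1 and Sc5d a stretch just after that start was not found unbroken in a GENCODE M21 transcript of the gene. For Mvk, Mvd, Ebp and Fasn it was. Capitals mark CCAAT or its complement ATTGG, which overlap once in Fasn, and in Hmgcs1 also the sterol regulatory element core TCACNCCAC.
Hmgcs1 (chr13:119690201-119690350, plus strand): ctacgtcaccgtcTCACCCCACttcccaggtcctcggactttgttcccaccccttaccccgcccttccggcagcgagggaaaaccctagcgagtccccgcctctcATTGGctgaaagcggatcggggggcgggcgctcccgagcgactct
Mvk (chr5:114444119-114444268, plus strand): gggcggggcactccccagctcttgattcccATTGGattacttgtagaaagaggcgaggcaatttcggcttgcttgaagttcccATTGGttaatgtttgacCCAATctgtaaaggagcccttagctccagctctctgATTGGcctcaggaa
Mvd (chr8:122443423-122443572, minus strand): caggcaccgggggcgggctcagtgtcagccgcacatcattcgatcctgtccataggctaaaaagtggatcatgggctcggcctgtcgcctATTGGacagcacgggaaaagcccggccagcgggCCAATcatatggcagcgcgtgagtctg
Ebp (chrX:8193513-8193662, minus strand): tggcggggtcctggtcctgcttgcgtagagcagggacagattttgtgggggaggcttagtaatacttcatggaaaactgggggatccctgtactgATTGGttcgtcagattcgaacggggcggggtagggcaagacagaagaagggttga
Sc5d (chr9:42264301-42264450, minus strand): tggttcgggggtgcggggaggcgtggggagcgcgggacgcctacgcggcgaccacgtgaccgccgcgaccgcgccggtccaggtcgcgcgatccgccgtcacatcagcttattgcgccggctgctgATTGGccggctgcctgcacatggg
Fasn (chr11:120824548-120824697, minus strand): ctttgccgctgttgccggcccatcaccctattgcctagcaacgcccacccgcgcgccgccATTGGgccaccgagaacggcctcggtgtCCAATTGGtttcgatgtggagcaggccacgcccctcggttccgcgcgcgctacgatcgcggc

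Of the 32 members, 25 had a RefSeq promoter window of 300 bases, 250 before and 50 after the start, and 7 (Fdps, Stard4, Sqle, Scd1, Fads1, Scd2 and Fdft1) had none in the table used. On either strand, CCAAT was found in the windows of 21 of the 25 members (84%), against 42.9% of the 11000 tested genes with a window and 41.1% of all 27025 genes with one. Acat2, Acaca, Elovl6 and Fads2 were the 4 members with a window and no CCAAT in it. GGGCGG, the GC box bound by Sp1, was found in 20 of 25 (80%), against 67.1% of tested genes. The sterol regulatory element core TCACNCCAC was found in Hmgcs1 alone (4%), against 1.49% of tested genes. The palindromic E-box CACGTG was found in Dhcr7, Hsd17b7, Insig1 and Sc5d (16%), against 11.3%. CCAAT occurred in windows of genes that fell at 4 h of both inhibitors (Cyp51, Ebp), that on the deposited scale fell at 8 h of BMH-21 and in no other comparison with control (Lss, Nsdhl), and that did not fall (Mvk, Pmvk). A match describes the letters of the window only.

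Most of the lipid synthesis genes were lower after 8 h of BMH-21, led by the desaturases Scd1, Fads2 and Fads1 and the sterol isomerase Ebp. By then 27 of 32 members had fallen and 0 had risen, against 56.9% of all tested genes lower and 24.5% higher. In limma the count of members higher at an unadjusted p under 0.05 was also 0, and it was 0 with voom weights. All 27 that fell had their 3 BMH-21 libraries below the 3 control libraries. The share of all genes separated in this way was not counted, so this separation cannot be read as particular to the members. The median member difference was -0.77 against -0.40 for all genes. After centring, 25 members were lower and 4 higher, against 51.3% and 33.3% of all genes, with a median of -0.56 against -0.19. With median-ratio factors 25 were lower and 6 higher, against 43.3% and 39.2%, with a median of -0.42 against -0.04.

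The members' median was nearer the control at 8 h of CX-5461. On the deposited scale 11 members were lower and 2 (Pmvk and Insig2) higher, against 14.3% of all genes lower and 35.1% higher, and the median was -0.12 against 0.11. This count depended on the scale. After centring 28 of 32 were lower and 1 higher, with a median of -0.34 against -0.11. With median-ratio factors 22 were lower and 2 higher, with a median of -0.24 against -0.01. The shares of all genes lower and higher were 44.7% and 29.3% after centring and 35.3% and 35.2% with median-ratio factors. Without CX-5461 8 h library 2 or 3, or control library 1 or 2, members lower numbered 4 to 7. Members higher numbered 1 without CX-5461 8 h library 1 or 3, or control library 3.

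At 4 h of BMH-21, 15 members were lower and 4 (Hmgcs1, Mvk, Pmvk and Srebf1) higher, against 44.9% and 22.1% of all genes, with a median of -0.21 equal to that of all genes. The centred scale gave 14 lower and 9 higher, and so did median-ratio factors. The shares of all genes were 41.5% and 32.2% after centring and 38.8% and 34.4% with median-ratio factors. Members higher numbered 0 to 2 without BMH-21 4 h library 1 or 3, or control library 3. At 4 h of CX-5461, 19 were lower and 0 higher, against 51.2% and 19.8%, with medians of -0.29 and -0.28. No member was higher there at an unadjusted p under 0.05 or with voom weights. On the centred scale, however, 4 were higher and 17 lower, against 28.5% and 45.7% of all genes. On the median-ratio scale 10 were higher and 13 lower, against 33.3% and 36.5%. The shares of members lower at 4 h, 46.9% and 59.4%, were near those of all genes. At 2 h of BMH-21, 2 were higher (Hmgcs1 and Msmo1) and 1 lower (Sc5d), against 8.48% and 11.2% of all genes. After centring 15 were higher and 3 lower, against 18.6% and 17.5%. With median-ratio factors 15 were higher and 1 lower, against 19.2% and 16.5%. Without BMH-21 2 h library 2 or 3, or control library 2 or 3, members higher numbered 1. At 2 h of CX-5461, 5 were lower (Ggps1, Ebp, Sc5d, Dhcr7 and Fads1) and 0 higher, against 20.5% and 7.45%. None was higher at an unadjusted p under 0.05 or with voom weights. After centring, however, 7 were higher and 5 lower, against 15.8% and 17.8% of all genes. With median-ratio factors 9 were higher and 1 lower, against 18.8% and 12.8%. Without CX-5461 2 h library 2 or 3, or control library 1 or 2, members lower numbered 0 to 1.

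**Figure D1:**
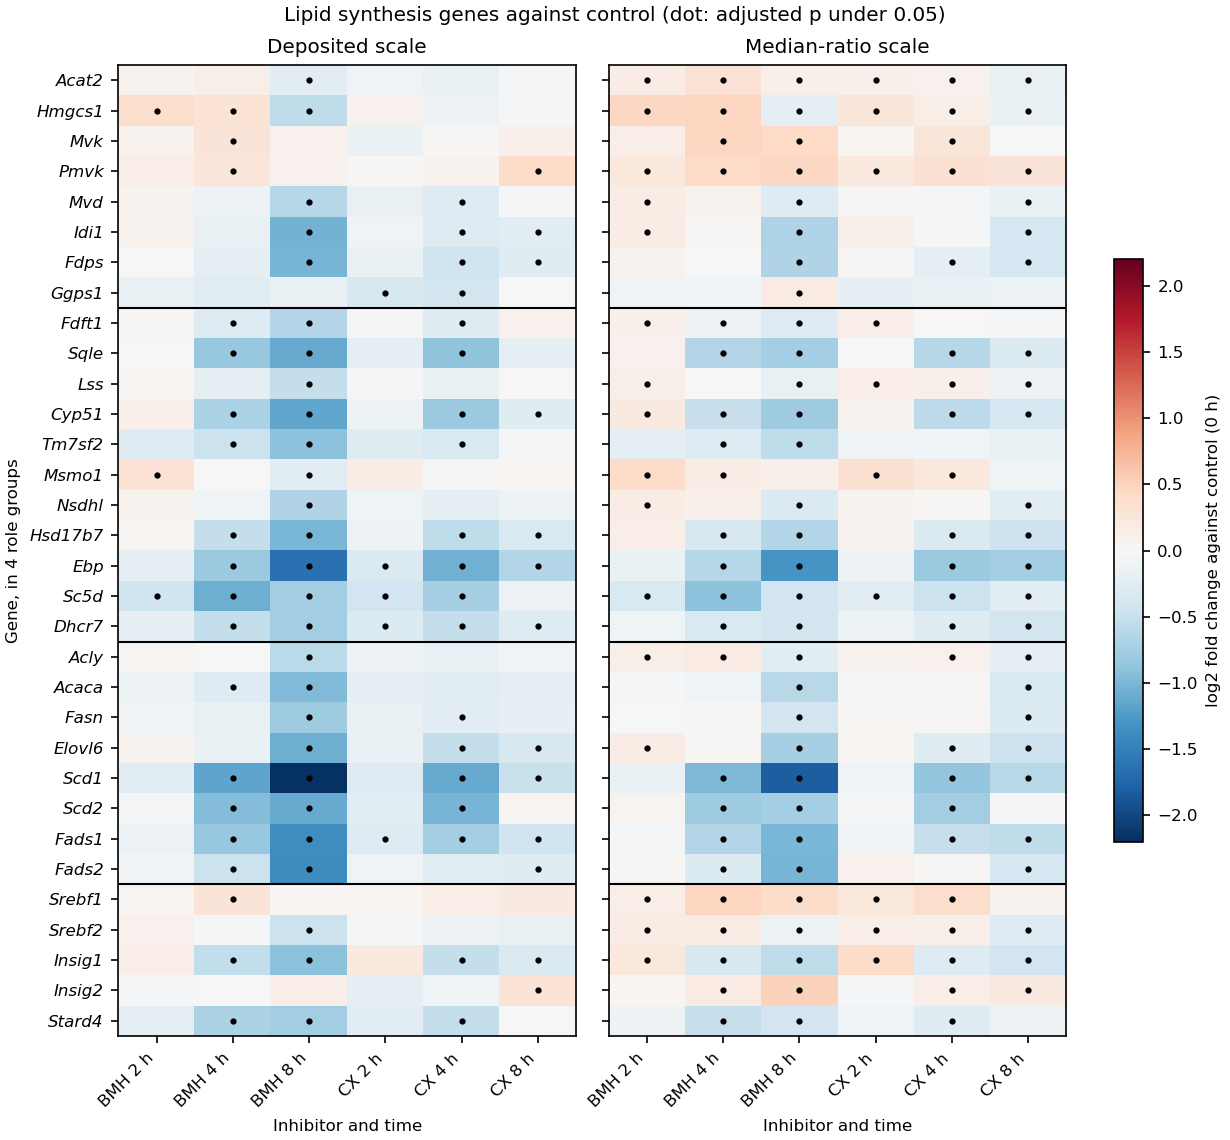
Each cell is 1 gene's mean log2 difference from the 3 control libraries for BMH-21 (BMH) or CX-5461 (CX) at 2, 4 or 8 h, 3 libraries per group, in the 4 role groups from mevalonate enzymes at the top to regulators at the bottom; the left panel uses the deposited scale and the right panel median-ratio factors, and a dot marks an adjusted p under 0.05. In the 8 h BMH-21 column 27 of 32 genes are lower on the left, and 25 are lower and 6 higher on the right.

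**Figure D2:**
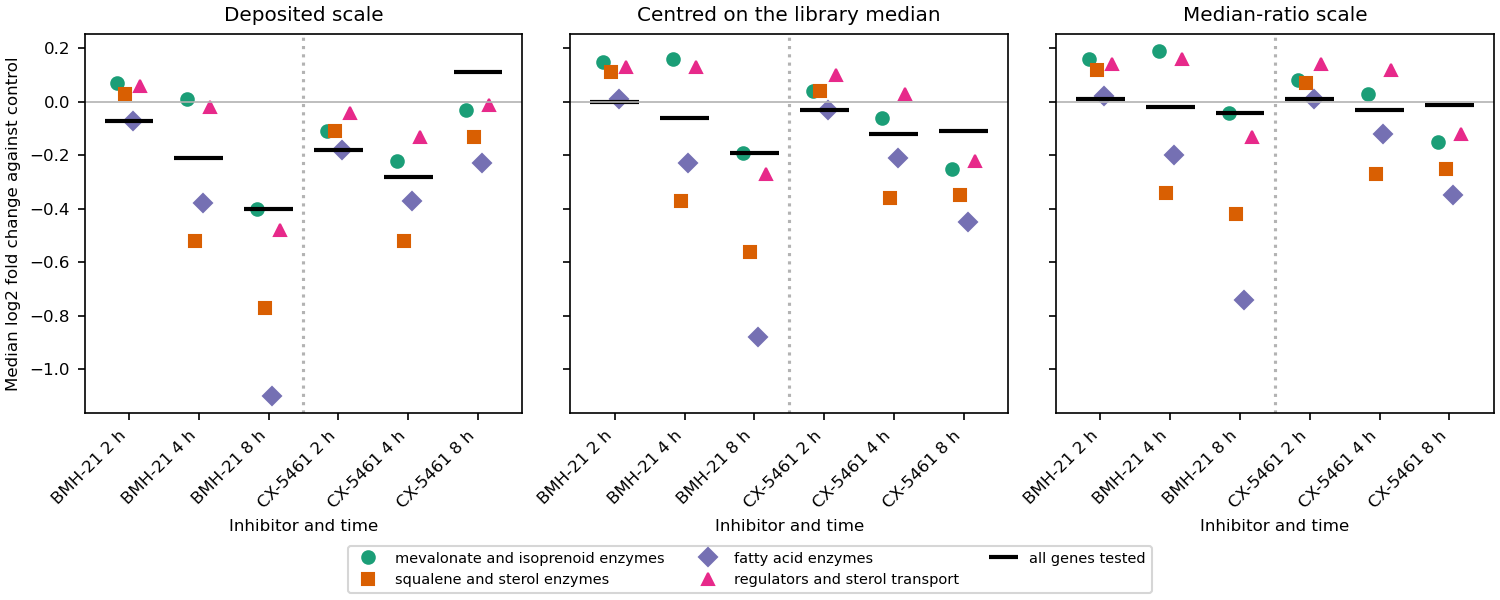
Median log2 difference from control (vertical axis) for the 4 role groups (symbols) and for all 14666 genes tested (bars), by inhibitor and time, on the deposited scale, the scale centred on each library's median, and the scale of median-ratio factors. The fatty acid enzymes lie lowest at 8 h of BMH-21 on each scale (-1.10, -0.88 and -0.74), while the bar for all genes moves from -0.40 to -0.19 and -0.04.

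Among the 8 mevalonate and isoprenoid enzymes, 3 were higher and 0 lower at 4 h of BMH-21, against 22.1% and 44.9% of all genes, and 4 were higher and 0 lower on each of the other scales. By 8 h 5 were lower and 0 higher, against 56.9% and 24.5%, with 4 lower and 2 higher on the centred scale and 4 and 4 on the median-ratio scale. The 5 were Acat2, Hmgcs1, Mvd, Idi1 and Fdps, with a group median of -0.40 that equalled the median of all genes. The largest falls were in Idi1, which interconverts the isopentenyl and dimethylallyl isoprenoid units, and in Fdps, which joins them into farnesyl diphosphate. Idi1 read 7.31, 7.30 and 7.07 in the 3 control libraries. Idi1 then read 7.16, 7.41 and 7.32 at 2 h of BMH-21, 7.30, 6.96 and 6.94 at 4 h and 6.24, 6.06 and 6.25 at 8 h. With CX-5461 Idi1 read 7.28, 7.02 and 7.15 at 2 h, 6.80, 7.15 and 6.86 at 4 h and 7.08, 6.85 and 6.99 at 8 h. Of the 6 treated groups, that at 8 h of BMH-21 alone lay wholly below the control, where the difference was -1.04 (SE 0.11, adjusted p = 4.8e-16) in limma. Its difference at 4 h of BMH-21 was -0.16 (SE 0.11, adjusted p = 0.19, called at -0.27 without BMH-21 4 h library 1, 0.06 with quantile normalization), of the opposite sign with median-ratio factors (0.02). With CX-5461 the limma differences of Idi1 were -0.29 (SE 0.11, adjusted p = 0.014, not called at -0.25 to -0.22 without CX-5461 4 h library 1 or 3, or control library 1 or 2, 0.04 with quantile normalization) at 4 h and -0.25 (SE 0.11, adjusted p = 0.044, not called at -0.26 to -0.19 without CX-5461 8 h library 2 or 3, or control library 1 or 2) at 8 h. Its CX-5461 libraries overlapped the control at both times. With median-ratio factors Idi1 was -0.04 at 4 h of CX-5461 and was not called.

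Fdps read 7.47, 7.51 and 7.27 in control. Fdps then read 7.33, 7.48 and 7.42 at 2 h of BMH-21, 7.36, 7.08 and 7.24 at 4 h and 6.40, 6.41 and 6.36 at 8 h. With CX-5461 it read 7.35, 7.15 and 7.32 at 2 h, 6.93, 7.11 and 6.90 at 4 h and 7.22, 7.06 and 7.18 at 8 h. Its 3 BMH-21 libraries at 8 h lay close together and well under the control, a limma difference of -1.03 (SE 0.10, adjusted p = 1.3e-16). With CX-5461 the 4 h and 8 h libraries were also all below the control, by less: -0.44 (SE 0.10, adjusted p = 0.00012) and -0.27 (SE 0.10, adjusted p = 0.026, not called at -0.28 to -0.22 without CX-5461 8 h library 2 or 3, or control library 1 or 2). At 4 h of BMH-21 the difference in Fdps was -0.19 (SE 0.10, adjusted p = 0.1, called at -0.26 without BMH-21 4 h library 1, or control library 3, 0.05 with quantile normalization).

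Hmgcs1, which makes HMG-CoA, was first higher and then lower with BMH-21. It rose by 0.38 (SE 0.11, adjusted p = 0.0045) at 2 h and 0.30 (SE 0.11, adjusted p = 0.01, not called at 0.18 to 0.23 without BMH-21 4 h library 1, or control library 3) at 4 h in limma. At 8 h it was -0.56 (SE 0.11, adjusted p = 1.3e-06, 0.00 with quantile normalization) from control, and the centred and median-ratio scales gave these same directions. Hmgcs1 libraries read 7.83, 7.82 and 7.62 in control. With BMH-21 they read 7.96, 8.24 and 8.21 at 2 h, 8.29, 7.96 and 7.91 at 4 h and 7.32, 7.02 and 7.27 at 8 h. These groups did not overlap the control at any of them. Mvd, which makes isopentenyl diphosphate, fell at 8 h of BMH-21 (-0.63, SE 0.11, adjusted p = 7.1e-08) and at 4 h of CX-5461 (-0.28, SE 0.11, adjusted p = 0.015, not called at -0.26 without CX-5461 4 h library 3, or control library 1). The median of all genes at 4 h of CX-5461 was also -0.28, and with median-ratio factors Mvd was -0.03 there and not called. Acat2, a thiolase that condenses acetyl-CoA, was -0.24 (SE 0.11, adjusted p = 0.03, not called at -0.24 to -0.20 without BMH-21 8 h library 1 or 2, or control library 1 or 2, 0.25 with quantile normalization) on the deposited scale at 8 h of BMH-21, -0.03 when centred and 0.12 with median-ratio factors, so its direction depended on the scale.

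Mvk and Pmvk, the kinases that phosphorylate mevalonate and then phosphomevalonate, did not fall in any comparison with control. They rose at 4 h of BMH-21 by 0.29 (SE 0.11, adjusted p = 0.017, not called at 0.22 to 0.27 without BMH-21 4 h library 1 or 3, or control library 1) and 0.26 (SE 0.11, adjusted p = 0.03, not called at 0.21 to 0.26 without BMH-21 4 h library 1 or 3, or control library 2 or 3) in limma. At 8 h they differed from control by 0.09 (SE 0.11, adjusted p = 0.48) and 0.10 (SE 0.11, adjusted p = 0.38), and by 0.30 and 0.32 after centring, where both were called higher. Pmvk also rose at 8 h of CX-5461, by 0.41 (SE 0.11, adjusted p = 0.00088), with all 3 libraries above the control. Ggps1, which makes the geranylgeranyl donor for protein anchors, fell with CX-5461 at 2 h (-0.36, SE 0.11, adjusted p = 0.0094, not called at -0.34 to -0.29 without CX-5461 2 h library 3, or control library 1 or 2) and 4 h (-0.40, SE 0.11, adjusted p = 0.00082). With median-ratio factors it was -0.18 and -0.15 at these times and not called at either. Ggps1 at 8 h of BMH-21 was -0.17 (SE 0.11, adjusted p = 0.14, called at -0.30 without control library 3, 0.14 with quantile normalization), and had the opposite sign on the centred (0.04) and median-ratio (0.18) scales.

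The 11 squalene and sterol enzymes all fell at 8 h of BMH-21 on the deposited scale, against 56.9% of all genes, with a median of -0.77. After centring 10 were lower and 0 higher (median -0.56), and with median-ratio factors 10 were lower and 0 higher (median -0.42). Of the 11, 8 were lower at 4 h of BMH-21 and 8 at 4 h of CX-5461, against 44.9% and 51.2% of all genes. The group median was -0.52 with each, against -0.21 and -0.28 for all genes. With BMH-21 8 were lower on the other scales too, and with CX-5461 7 were on the centred scale and 6 on the median-ratio scale. At 8 h of CX-5461 4 were lower (Cyp51, Hsd17b7, Ebp and Dhcr7; median -0.13), against 14.3% of all genes. All 11 were lower after centring and 8 with median-ratio factors.

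Ebp, the isomerase that moves the double bond of the sterol B ring, showed the largest fall among the sterol enzymes. It read 4.72, 4.84 and 4.63 in control. Ebp then read 4.42, 4.60 and 4.51 at 2 h of BMH-21, 4.15, 3.76 and 3.85 at 4 h and 3.13, 3.04 and 3.09 at 8 h. With CX-5461 it read 4.49, 4.40 and 4.38 at 2 h, 3.63, 3.83 and 3.54 at 4 h and 4.12, 4.03 and 4.12 at 8 h. The libraries descended stepwise with BMH-21, and in each of the 6 treated groups all 3 lay below the control. The limma differences were -0.81 (SE 0.11, adjusted p = 4.9e-10) and -1.64 (SE 0.11, adjusted p = 3.1e-27) at 4 and 8 h of BMH-21, and -1.06 (SE 0.11, adjusted p = 6.4e-15) and -0.64 (SE 0.11, adjusted p = 8.4e-07) at 4 and 8 h of CX-5461.

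Cyp51 and Sqle were both low at 4 h. Cyp51, the demethylase that trims lanosterol, read 5.91, 5.87 and 5.77 in control. Cyp51 then read 5.77, 6.07 and 6.06 at 2 h of BMH-21, 5.37, 5.01 and 5.08 at 4 h and 4.83, 4.60 and 4.67 at 8 h. With CX-5461 Cyp51 read 5.83, 5.59 and 5.80 at 2 h, 4.88, 5.15 and 5.05 at 4 h and 5.69, 5.47 and 5.61 at 8 h. It was thus lower at 4 h with both inhibitors, by limma differences of -0.70 (SE 0.11, adjusted p = 2.2e-08) with BMH-21 and -0.82 (SE 0.11, adjusted p = 1.2e-10) with CX-5461. Cyp51 went lower again at 8 h of BMH-21, at -1.15 (SE 0.11, adjusted p = 9.1e-18). It was nearer the control at 8 h of CX-5461, at -0.26 (SE 0.11, adjusted p = 0.045, not called at -0.27 to -0.20 without CX-5461 8 h library 2 or 3, or control library 1 or 2).

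Sqle, the monooxygenase that oxidizes squalene, read 6.79, 6.77 and 6.59 in control. Sqle then read 6.58, 6.82 and 6.76 at 2 h of BMH-21, 6.09, 5.82 and 5.76 at 4 h and 5.73, 5.48 and 5.63 at 8 h. With CX-5461 Sqle read 6.63, 6.43 and 6.53 at 2 h, 5.68, 6.00 and 5.83 at 4 h and 6.55, 6.46 and 6.53 at 8 h. Its 4 h libraries were low with either inhibitor, with limma differences of -0.83 (SE 0.11, adjusted p = 2.7e-11) and -0.88 (SE 0.11, adjusted p = 3.2e-12). Its 2 h libraries overlapped the control. At 8 h the difference was -1.11 (SE 0.11, adjusted p = 1.8e-17) with BMH-21 and -0.21 (SE 0.11, adjusted p = 0.11) with CX-5461. There all 3 libraries still lay below the control, and the centred difference was -0.42.

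Sc5d, the desaturase that adds a double bond late in the pathway, was the member that was lower at 2 h with both inhibitors. It read 4.15, 4.11 and 3.98 in control. Sc5d then read 3.55, 3.81 and 3.61 at 2 h of BMH-21, 3.25, 3.01 and 2.74 at 4 h and 3.49, 2.99 and 3.44 at 8 h. With CX-5461 Sc5d read 3.87, 3.58 and 3.54 at 2 h, 3.29, 3.60 and 3.17 at 4 h and 3.96, 3.91 and 3.98 at 8 h. Its difference was -0.43 (SE 0.12, adjusted p = 0.0069) at 2 h of BMH-21 and -0.42 (SE 0.12, adjusted p = 0.0074, not called at -0.38 to -0.36 without CX-5461 2 h library 2 or 3) at 2 h of CX-5461 in limma. The lowest libraries were those at 4 h of BMH-21, at -1.08 (SE 0.12, adjusted p = 1.3e-13). Of the 3 libraries at 8 h, 1 (2.99) remained within their range, and the difference at 8 h was -0.77 (SE 0.12, adjusted p = 1.6e-08). With CX-5461 Sc5d differed by -0.73 (SE 0.12, adjusted p = 1.7e-07) at 4 h and -0.13 (SE 0.12, adjusted p = 0.39) at 8 h.

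Hsd17b7, a ketoreductase of the sterol C4 demethylation steps, read 4.12, 4.16 and 3.95 in control. Hsd17b7 then read 4.01, 4.29 and 4.10 at 2 h of BMH-21, 3.81, 3.39 and 3.44 at 4 h and 3.18, 2.91 and 3.15 at 8 h. With CX-5461 Hsd17b7 read 4.09, 3.93 and 3.88 at 2 h, 3.25, 3.77 and 3.54 at 4 h and 3.83, 3.58 and 3.80 at 8 h. All 4 h and 8 h groups lay below the control without overlap, and the 2 h groups overlapped it. In limma the differences at 4 and 8 h were -0.53 (SE 0.12, adjusted p = 6.8e-05) and -1.0 (SE 0.12, adjusted p = 8.3e-13) with BMH-21. They were -0.56 (SE 0.12, adjusted p = 3.2e-05) and -0.34 (SE 0.12, adjusted p = 0.015, not called at -0.32 to -0.26 without CX-5461 8 h library 2, or control library 1 or 2) with CX-5461.

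Among the other sterol enzymes, Dhcr7, which completes cholesterol by reducing the sterol B ring, was lower at 4 h of either inhibitor, at -0.52 (SE 0.11, adjusted p = 2.3e-05) and -0.52 (SE 0.11, adjusted p = 2.5e-05). It was also lower at 8 h of BMH-21, at -0.76 (SE 0.11, adjusted p = 1e-09). Fdft1, squalene synthase, and Tm7sf2, a sterol reductase, were also lower at 4 h with both inhibitors. With BMH-21 and CX-5461 Fdft1 was at -0.29 (adjusted p = 0.012, not called at -0.25 without BMH-21 4 h library 2 or 3, or control library 1) and -0.26 (adjusted p = 0.024, not called at -0.23 to -0.21 without CX-5461 4 h library 1 or 3, or control library 1, 0.07 with quantile normalization) in limma. Tm7sf2 was at -0.47 (adjusted p = 0.0015) and -0.34 (adjusted p = 0.024, not called at -0.32 to -0.25 without CX-5461 4 h library 1, or control library 1 or 2). With median-ratio factors neither was called at 4 h of CX-5461 (Fdft1 -0.01, Tm7sf2 -0.09). Tm7sf2 was also not called there after centring (-0.18). By 8 h of BMH-21 Fdft1 was -0.64 (SE 0.11, adjusted p = 3.5e-08) and Tm7sf2 -0.91 (SE 0.14, adjusted p = 1.8e-09). Lss, the cyclase that makes lanosterol, and Nsdhl, a dehydrogenase of C4 demethylation, fell at 8 h of BMH-21 and, on the deposited scale, in no other comparison with control. Their differences were -0.52 (SE 0.11, adjusted p = 8e-06) and -0.67 (SE 0.11, adjusted p = 9.2e-08). With 8 h of CX-5461 Lss was 0.01 as deposited and -0.03 with quantile normalization, and was called lower at -0.21 centred and -0.11 with median-ratio factors. Nsdhl was -0.11 there as deposited and was called lower at -0.33 and -0.23 on the other scales. Msmo1, the C4 methyl oxidase, rose at 2 h of BMH-21, by 0.31 (SE 0.11, adjusted p = 0.032, not called at 0.27 to 0.31 without BMH-21 2 h library 2 or 3, or control library 2 or 3). At 8 h it was -0.24 (SE 0.11, adjusted p = 0.039, not called at -0.25 to -0.19 without BMH-21 8 h library 2 or 3, or control library 1 or 2, 0.09 with quantile normalization) as deposited but -0.03 when centred and 0.11 with median-ratio factors.

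**Figure D3:**
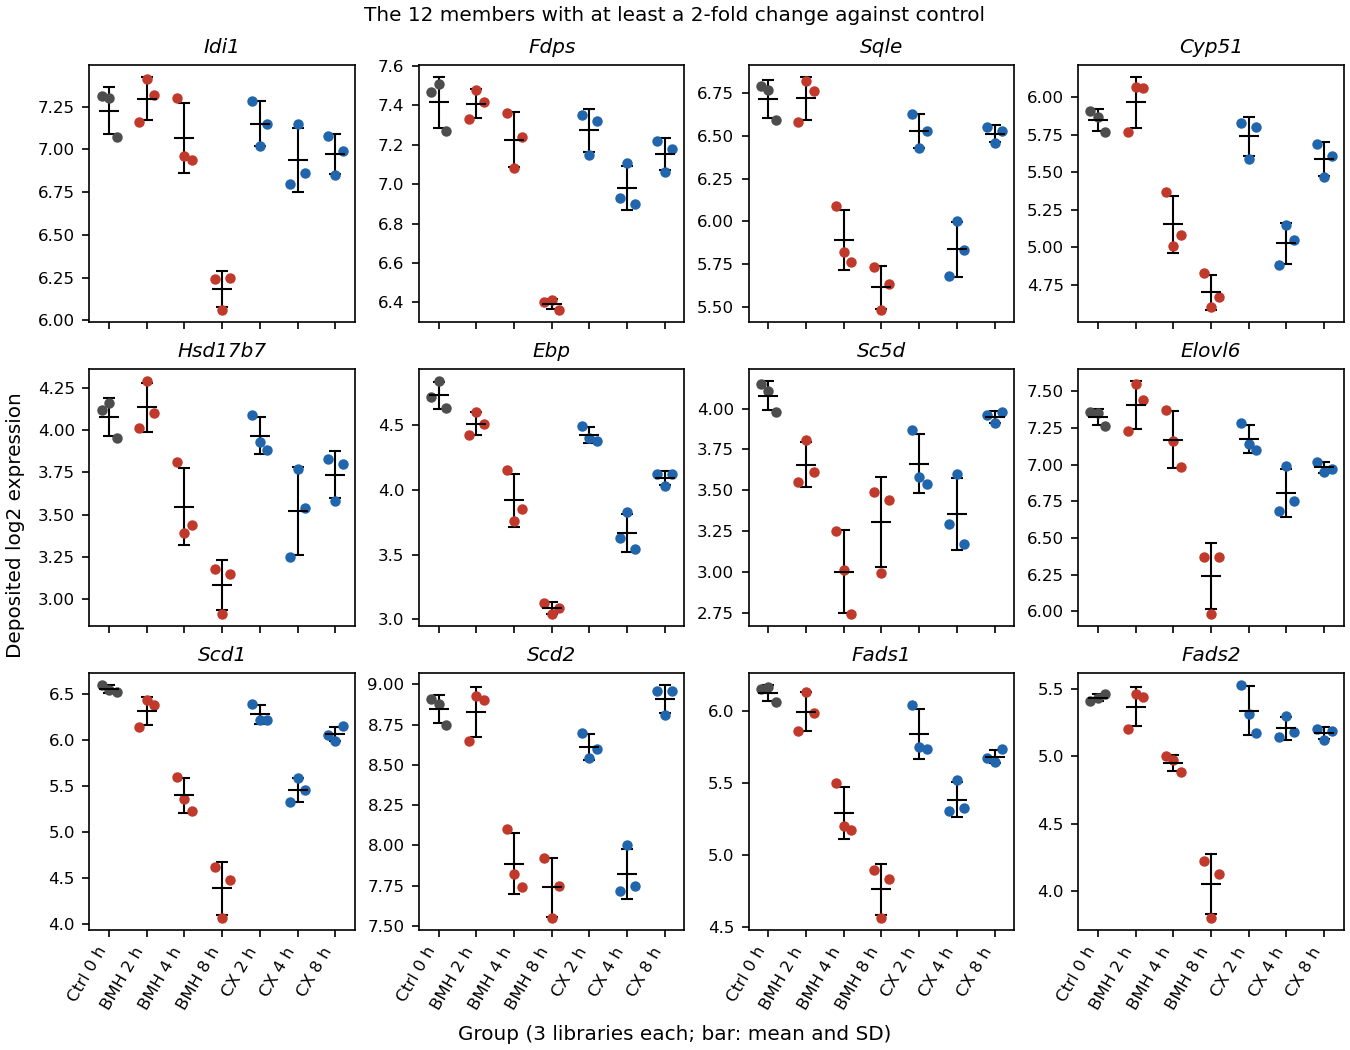
Deposited log2 expression (vertical axes, each with its own range) of the 12 members with at least a 2-fold difference from control after rounding, in all 21 libraries: control (Ctrl), BMH-21 (BMH) and CX-5461 (CX) at 2, 4 and 8 h. Hsd17b7 reaches it only by rounding. Points are single libraries, and bars give the mean and SD of 3 libraries. The Scd2 and Sqle libraries of CX-5461 are low at 4 h and near or within the control range at 8 h, while those of BMH-21 stay low.

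The fatty acid enzymes at 8 h of BMH-21 had the lowest median of the 4 role groups. All 8 were lower on each of the 3 scales, against 56.9% of all genes as deposited, 51.3% centred and 43.3% with median-ratio factors. With quantile normalization 7 kept that sign and Acly was at 0.11. Their median was -1.10 on the deposited scale, -0.88 once libraries were centred and -0.74 on the median-ratio scale. At 4 h, 5 of 8 were lower with BMH-21 (median -0.38) and 5 of 8 with CX-5461 (median -0.37), against 44.9% and 51.2% of all genes. On the centred and median-ratio scales 4 of 8 were lower with each inhibitor. At 8 h of CX-5461, 4 of 8 were lower (Elovl6, Scd1, Fads1 and Fads2; median -0.23), against 14.3% of all genes, and 8 of 8 after centring and 7 of 8 with median-ratio factors.

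Scd1, a stearoyl-CoA desaturase that makes monounsaturated fatty acids, had the largest fall of all members. It read 6.60, 6.54 and 6.52 in control. Scd1 then read 6.14, 6.43 and 6.38 at 2 h of BMH-21, 5.60, 5.36 and 5.23 at 4 h and 4.62, 4.06 and 4.47 at 8 h. With CX-5461 Scd1 read 6.39, 6.22 and 6.22 at 2 h, 5.32, 5.58 and 5.45 at 4 h and 6.05, 5.99 and 6.15 at 8 h. No treated library reached the control range. The limma difference grew from -1.16 (SE 0.11, adjusted p = 2.3e-17) at 4 h to -2.17 (SE 0.11, adjusted p = 6.8e-38) at 8 h of BMH-21. With CX-5461 it was -1.11 (SE 0.11, adjusted p = 3.7e-16) at 4 h and -0.49 (SE 0.11, adjusted p = 0.0001) at 8 h.

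Scd2, the related desaturase, read 8.91, 8.88 and 8.75 in control. Scd2 then read 8.65, 8.93 and 8.90 at 2 h of BMH-21, 8.10, 7.82 and 7.74 at 4 h and 7.92, 7.55 and 7.75 at 8 h. With CX-5461 Scd2 read 8.70, 8.54 and 8.60 at 2 h, 7.72, 8.00 and 7.75 at 4 h and 8.96, 8.81 and 8.96 at 8 h. It fell at 4 h with both, at -0.96 (SE 0.10, adjusted p = 1.1e-14) and -1.02 (SE 0.10, adjusted p = 6.1e-16) in limma. Scd2 stayed low at 8 h of BMH-21, at -1.11 (SE 0.10, adjusted p = 2.5e-18). At 8 h of CX-5461 its libraries overlapped the control, with a difference of 0.06 (SE 0.10, adjusted p = 0.65) as deposited, -0.15 when centred and -0.05 with median-ratio factors. Scd1 and Scd2 are close paralogues, and Acat2 and Idi1 have related copies in the mouse genome. How reads matching several copies were counted is not given in the sources used here, so the split between such copies is uncertain.

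Fads1 and Fads2, the desaturases that make polyunsaturated fatty acids from dietary precursors, both fell at 4 and 8 h of BMH-21. Fads1 read 6.15, 6.16 and 6.06 in control. Fads1 then read 5.86, 6.13 and 5.98 at 2 h of BMH-21, 5.50, 5.20 and 5.17 at 4 h and 4.89, 4.56 and 4.83 at 8 h. With CX-5461 Fads1 read 6.04, 5.75 and 5.73 at 2 h, 5.30, 5.52 and 5.32 at 4 h and 5.67, 5.64 and 5.73 at 8 h. Fads1 libraries at 4 and 8 h were below the control with both inhibitors. The limma differences were -0.83 (SE 0.11, adjusted p = 5.6e-11) and -1.37 (SE 0.11, adjusted p = 2.2e-22) with BMH-21 and -0.75 (SE 0.11, adjusted p = 3e-09) and -0.44 (SE 0.11, adjusted p = 0.00039) with CX-5461.

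Fads2 read 5.41, 5.43 and 5.46 in control. Fads2 then read 5.20, 5.46 and 5.44 at 2 h of BMH-21, 5.00, 4.97 and 4.88 at 4 h and 4.22, 3.80 and 4.13 at 8 h. With CX-5461 Fads2 read 5.53, 5.31 and 5.17 at 2 h, 5.14, 5.30 and 5.18 at 4 h and 5.20, 5.12 and 5.19 at 8 h. All BMH-21 libraries at 4 and 8 h were below the control, at -0.48 (SE 0.11, adjusted p = 8.3e-05) and -1.38 (SE 0.11, adjusted p = 1.4e-22) in limma. With CX-5461 Fads2 was -0.23 (SE 0.11, adjusted p = 0.062, called at -0.27 without CX-5461 4 h library 2, 0.00 with quantile normalization) at 4 h, of the opposite sign with median-ratio factors (0.02), and -0.26 (SE 0.11, adjusted p = 0.045, not called at -0.27 to -0.23 without CX-5461 8 h library 1, 2 or 3, or control library 1, 2 or 3) at 8 h.

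Elovl6, which elongates palmitate to stearate, read 7.36, 7.35 and 7.26 in control. Elovl6 then read 7.23, 7.55 and 7.44 at 2 h of BMH-21, 7.37, 7.16 and 6.98 at 4 h and 6.37, 5.98 and 6.37 at 8 h. With CX-5461 Elovl6 read 7.28, 7.14 and 7.10 at 2 h, 6.68, 6.99 and 6.75 at 4 h and 7.02, 6.95 and 6.97 at 8 h. At 4 h it was low with CX-5461 (-0.52, SE 0.11, adjusted p = 1.5e-05 in limma) and overlapped the control with BMH-21 (-0.15, SE 0.11, adjusted p = 0.21, called at -0.25 without BMH-21 4 h library 1, 0.08 with quantile normalization, and 0.03 on the median-ratio scale). At 8 h the BMH-21 libraries were the lower, with -1.08 (SE 0.11, adjusted p = 6.6e-17) for BMH-21 and -0.35 (SE 0.11, adjusted p = 0.0052) for CX-5461.

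The enzymes that supply and assemble the carbon chain were lower mainly at 8 h of BMH-21. Acly, which releases cytosolic acetyl-CoA from citrate, was -0.60 (SE 0.10, adjusted p = 6.1e-08, 0.11 with quantile normalization) at 8 h of BMH-21 and on the deposited scale did not pass the test in any other comparison with control. After centring Acly was also called lower at 8 h of CX-5461 (-0.30, with -0.08 as deposited and 0.17 with quantile normalization), and higher at 2 and 4 h of BMH-21 (0.12 and 0.15). Fasn, the fatty acid synthase, was -0.78 (SE 0.10, adjusted p = 2.7e-11) at 8 h of BMH-21 and -0.23 (SE 0.10, adjusted p = 0.044, not called at -0.22 to -0.16 without CX-5461 4 h library 1 or 3, or control library 1 or 2, 0.11 with quantile normalization) at 4 h of CX-5461, where median-ratio factors gave 0.02. Acaca, the carboxylase that makes malonyl-CoA, fell at 4 h (-0.28, SE 0.11, adjusted p = 0.018, not called at -0.27 to -0.18 without BMH-21 4 h library 3, or control library 1 or 2) and further at 8 h of BMH-21 (-0.97, SE 0.11, adjusted p = 4.4e-14). At 4 h of BMH-21 it was not called after centring (-0.13) or with median-ratio factors (-0.10). Acaca libraries at 8 h read 6.83, 6.26 and 6.73 against 7.64, 7.59 and 7.48 in control.

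The transcripts of the regulators did not move as 1 group. Insig1, which retains SCAP in the endoplasmic reticulum and is itself an SREBP target, was -0.54 (SE 0.11, adjusted p = 7.2e-06) and -0.91 (SE 0.11, adjusted p = 3.7e-13) at 4 and 8 h of BMH-21 in limma. At 4 and 8 h of CX-5461 it was -0.53 (SE 0.11, adjusted p = 1.2e-05) and -0.31 (SE 0.11, adjusted p = 0.014, not called at -0.27 to -0.24 without CX-5461 8 h library 2, or control library 1). At 2 h Insig1 differed by 0.15 (SE 0.11, adjusted p = 0.38) with BMH-21 and 0.21 (SE 0.11, adjusted p = 0.13) with CX-5461, and all 3 libraries with CX-5461 were above the control. It was called higher at 2 h with both inhibitors after centring (0.23 and 0.36) and with median-ratio factors (0.24 and 0.40). Stard4, a carrier of cholesterol between membranes, was lower at 4 h of both inhibitors, at -0.70 (SE 0.12, adjusted p = 1e-07) and -0.52 (SE 0.12, adjusted p = 4.7e-05). It was also lower at 8 h of BMH-21, at -0.77 (SE 0.12, adjusted p = 2.8e-09), and did not pass the test at 8 h of CX-5461 on the deposited scale (-0.01, and -0.22 centred, where it was called lower).

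Srebf2, the master regulator of the sterol branch, fell at 8 h of BMH-21 (-0.48, SE 0.11, adjusted p = 2.4e-05, 0.05 with quantile normalization) in limma and in no other comparison with control on the deposited scale. Srebf2 at 8 h of CX-5461 was -0.17 as deposited, and -0.38 centred and -0.28 with median-ratio factors, where it was called lower. Srebf1, whose products favour fatty acid genes, rose at 4 h of BMH-21 (0.29, SE 0.11, adjusted p = 0.012, not called at 0.21 to 0.22 without BMH-21 4 h library 1, or control library 3) and was 0.05 (SE 0.11, adjusted p = 0.68, of opposite sign at -0.02 without control library 3) at 8 h, when 8 of 8 fatty acid enzymes were lower. Insig2, the second retention protein, rose at 8 h of CX-5461 (0.30, SE 0.12, adjusted p = 0.022, not called at 0.24 to 0.31 without CX-5461 8 h library 1 or 3, or control library 3) and was 0.14 (SE 0.12, adjusted p = 0.25) at 8 h of BMH-21. After centring, Srebf1 and Insig2 were both higher at 8 h of BMH-21, by 0.26 and 0.35. Insig2 at 8 h of CX-5461 was not called after centring (0.09) and was called higher with median-ratio factors (0.19).

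On the deposited scale few members differed between the inhibitors at 2 and 4 h, and most did at 8 h. At 2 h, 0 of 32 members differed between BMH-21 and CX-5461 in limma, against 2.47% of all genes higher and 1.52% lower with BMH-21. At an unadjusted p under 0.05 there were 5 higher and 0 lower with BMH-21, and voom weights gave 0. Members higher numbered 1 without BMH-21 2 h library 1. After centring 4 were higher and 1 lower, against 7.83% and 7.58%, and with median-ratio factors 1 and 1, against 5.48% and 9.58%. At 4 h, 3 were higher with BMH-21 (Acat2, Elovl6 and Hmgcs1) and 1 lower (Sc5d), against 9.35% and 8.49% of all genes. After centring 11 were higher and 3 lower, against 27.4% and 18.5%, and with median-ratio factors 7 and 5, against 17.6% and 24.1%. The difference was 0.41 (SE 0.11, adjusted p = 0.0022, not called at 0.29 without BMH-21 4 h library 1) in Hmgcs1 and 0.37 (SE 0.11, adjusted p = 0.0097, not called at 0.27 to 0.34 without BMH-21 4 h library 1, or CX-5461 4 h library 1 or 3) in Elovl6. In Acat2 it was 0.29 (SE 0.11, adjusted p = 0.042, not called at 0.20 to 0.26 without BMH-21 4 h library 1, or CX-5461 4 h library 1 or 3), and in Sc5d -0.35 (SE 0.12, adjusted p = 0.034, not called at -0.36 to -0.22 without BMH-21 4 h library 2 or 3, or CX-5461 4 h library 2). There were 0 to 5 higher without BMH-21 4 h library 1 or 2, or CX-5461 4 h library 1, 2 or 3. Members lower numbered 0 without BMH-21 4 h library 2 or 3, or CX-5461 4 h library 2.

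At 8 h, 27 members were lower with BMH-21 than with CX-5461 and 0 higher, against 67.2% of all genes lower and 12.0% higher, with a median of -0.62 against -0.48. None was higher at an unadjusted p under 0.05 or with voom weights. All 27 had their BMH-21 libraries below all CX-5461 libraries. Here too the share of all genes separated in this way was not counted, so it cannot be read as particular to the members. After centring 22 were lower and 7 higher (median -0.20 against -0.06), against 40.6% and 31.1% of all genes. With median-ratio factors 17 were lower and 8 higher (median -0.15 against -0.01), against 36.4% and 34.4%. The largest difference was in Scd1 (-1.68, SE 0.11, adjusted p = 1.6e-27), followed by Scd2 (-1.17, SE 0.10, adjusted p = 3.9e-19), Fads2 (-1.12, SE 0.11, adjusted p = 1.3e-16) and Ebp (-1.01, SE 0.11, adjusted p = 8.1e-14). Fads1, Sqle, Cyp51 and Tm7sf2 followed at -0.92, -0.90, -0.89 and -0.88, and these 8 were lower on all 3 scales. Mvk (-0.03), Srebf1 (-0.15), Insig2 (-0.16), Ggps1 (-0.17) and Acat2 (-0.20) did not pass the test as deposited, and after centring, as with median-ratio factors and quantile normalization, they were higher with BMH-21, by 0.40, 0.28, 0.26, 0.26 and 0.23. Pmvk (-0.30, adjusted p = 0.0083, 0.15 with quantile normalization), Msmo1 (-0.29, adjusted p = 0.015, not called at -0.26 to -0.23 without CX-5461 8 h library 1 or 3, 0.16 with quantile normalization) and Srebf2 (-0.32, adjusted p = 0.0051, not called at -0.18 without BMH-21 8 h library 2, 0.13 with quantile normalization) were lower as deposited, but of opposite sign with the other scalings (centred 0.12, 0.14 and 0.11). The summed pluripotency markers were also lower at 8 h of BMH-21 than of CX-5461 (11.22 to 11.29 against 12.13 to 12.23), and their part in the difference was not tested. These sums are on the deposited scale alone, where the median of all genes was -0.48 between the inhibitors at 8 h.

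**Figure D4:**
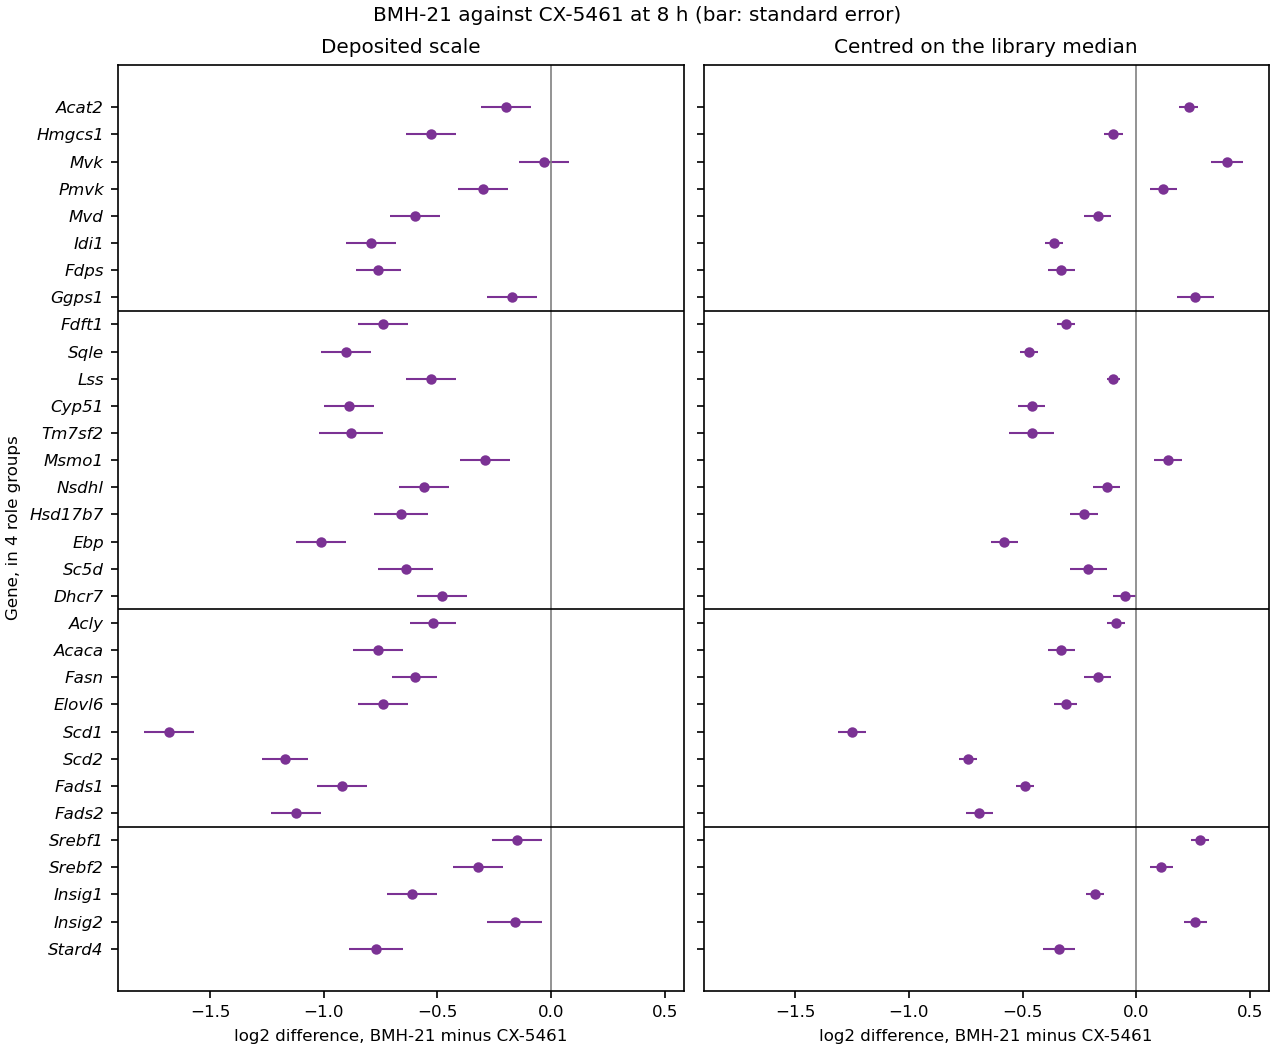
Log2 difference between BMH-21 and CX-5461 at 8 h (horizontal axis, 3 libraries each) for the 32 members in 4 role groups, on the deposited scale (left) and after centring each library on its median (right); bars are standard errors. All points are below 0 on the left, with Scd1 the farthest at -1.68, and 22 members are lower and 7 higher on the right at an adjusted p under 0.05.

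Between 2 and 4 h the largest falls were in desaturase and sterol genes with each inhibitor. From 2 to 4 h of BMH-21, 14 members fell and 0 rose, against 34.8% and 20.8% of all genes. On the centred scale 17 were lower and 4 higher, against 39.3% and 29%, and on the median-ratio scale 17 and 5, against 36.5% and 30.6%. At an unadjusted p under 0.05, 2 members rose, and voom weights called 1. There were 1 to 2 higher without BMH-21 2 h library 2, or BMH-21 4 h library 2. The largest falls were in Scd2 (-0.94, SE 0.10, adjusted p = 5.7e-14) and Scd1 (-0.92, SE 0.11, adjusted p = 3.4e-12). Next were Sqle (-0.83, SE 0.11, adjusted p = 3.9e-11) and Cyp51 (-0.82, SE 0.11, adjusted p = 2.2e-10). From 2 to 4 h of CX-5461, 12 fell and 0 rose, against 26.8% and 20.7%, and none rose at an unadjusted p under 0.05 or with voom weights. After centring 18 were lower and 2 higher, against 40.2% and 26.7%, and with median-ratio factors 16 and 3, against 33.1% and 30.3%. In this interval of CX-5461 Scd1 fell by 0.83, Scd2 by 0.79, Ebp by 0.76, Insig1 by 0.74, Cyp51 by 0.71 and Sqle by 0.69. All 6 fell in this interval with both inhibitors on all 3 scales, Ebp by 0.59 and Insig1 by 0.69 with BMH-21.

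From 4 to 8 h most members fell with BMH-21 while on the deposited scale none fell with CX-5461. With BMH-21, 23 members fell and 1 rose (Sc5d, 0.31, SE 0.12, adjusted p = 0.028, not called at 0.18 to 0.31 without BMH-21 4 h library 2 or 3, or BMH-21 8 h library 1 or 3), against 37.8% and 18.6% of all genes, with a median of -0.45 against -0.14. After centring 25 were lower and 2 higher, against 42.2% and 28.3%, and with median-ratio factors 22 and 3, against 32.5% and 36.7%. The falls were led by Scd1 (-1.01, SE 0.11, adjusted p = 9.1e-14) and Elovl6 (-0.93, SE 0.11, adjusted p = 7.7e-13). Next were Fads2 (-0.90, SE 0.11, adjusted p = 9.1e-12), Idi1 (-0.88, SE 0.11, adjusted p = 6.4e-12) and Hmgcs1 (-0.85, SE 0.11, adjusted p = 1.1e-11). Scd2, low at 4 h, did not pass the test over this interval (-0.15, SE 0.10, adjusted p = 0.23, 0.22 with quantile normalization, and 0.03 with median-ratio factors). Members higher numbered 0 without BMH-21 4 h library 2 or 3, or BMH-21 8 h library 1 or 3.

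With CX-5461, 14 members rose and 0 fell from 4 to 8 h, against 58.8% and 4.85% of all genes, and the median was 0.22 against 0.34. None fell at an unadjusted p under 0.05 or with voom weights. This count turned with the scale. After centring 5 were higher and 18 lower (median -0.16 against -0.04), against 25.8% and 32% of all genes. With median-ratio factors 5 were higher and 17 lower, against 26.4% and 30.9%. The 5 that were higher on all 3 scales were Scd2 (1.08, SE 0.10, adjusted p = 1.3e-16), Sqle (0.67, SE 0.11, adjusted p = 6.6e-08) and Scd1 (0.61, SE 0.11, adjusted p = 1.6e-06), with Sc5d (0.60, SE 0.12, adjusted p = 2.1e-05) and Cyp51 (0.57, SE 0.11, adjusted p = 6.9e-06). After centring their rises were 0.71, 0.30, 0.24, 0.22 and 0.19. All 5 were among the 19 of 32 members lower at 4 h of CX-5461, and those 4 h libraries enter both comparisons. The other 9 that rose as deposited, among them Ebp (0.42, SE 0.11, adjusted p = 0.00084, centred 0.05) and Fads1 (0.30, SE 0.11, adjusted p = 0.014, not called at 0.26 to 0.28 without CX-5461 4 h library 1 or 3, or CX-5461 8 h library 3, -0.06 with quantile normalization), were not called higher after centring, where Fads1 was below 0 (-0.07, and -0.06 with median-ratio factors). On the deposited scale the summed pluripotency markers were also higher at 8 h than at 4 h of CX-5461 (12.13 to 12.23 against 11.65 to 11.89). So were the summed trophectoderm markers (7.27 to 7.45 against 5.96 to 6.22), and the part of either in these rises was not tested. The median of all genes also rose by 0.34 there, and the sums were not taken on the other scales. Of the pluripotency markers, the mean of Tfcp2l1 alone was lower at 8 h than at 4 h (6.25 against 6.47).

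**Figure D5:**
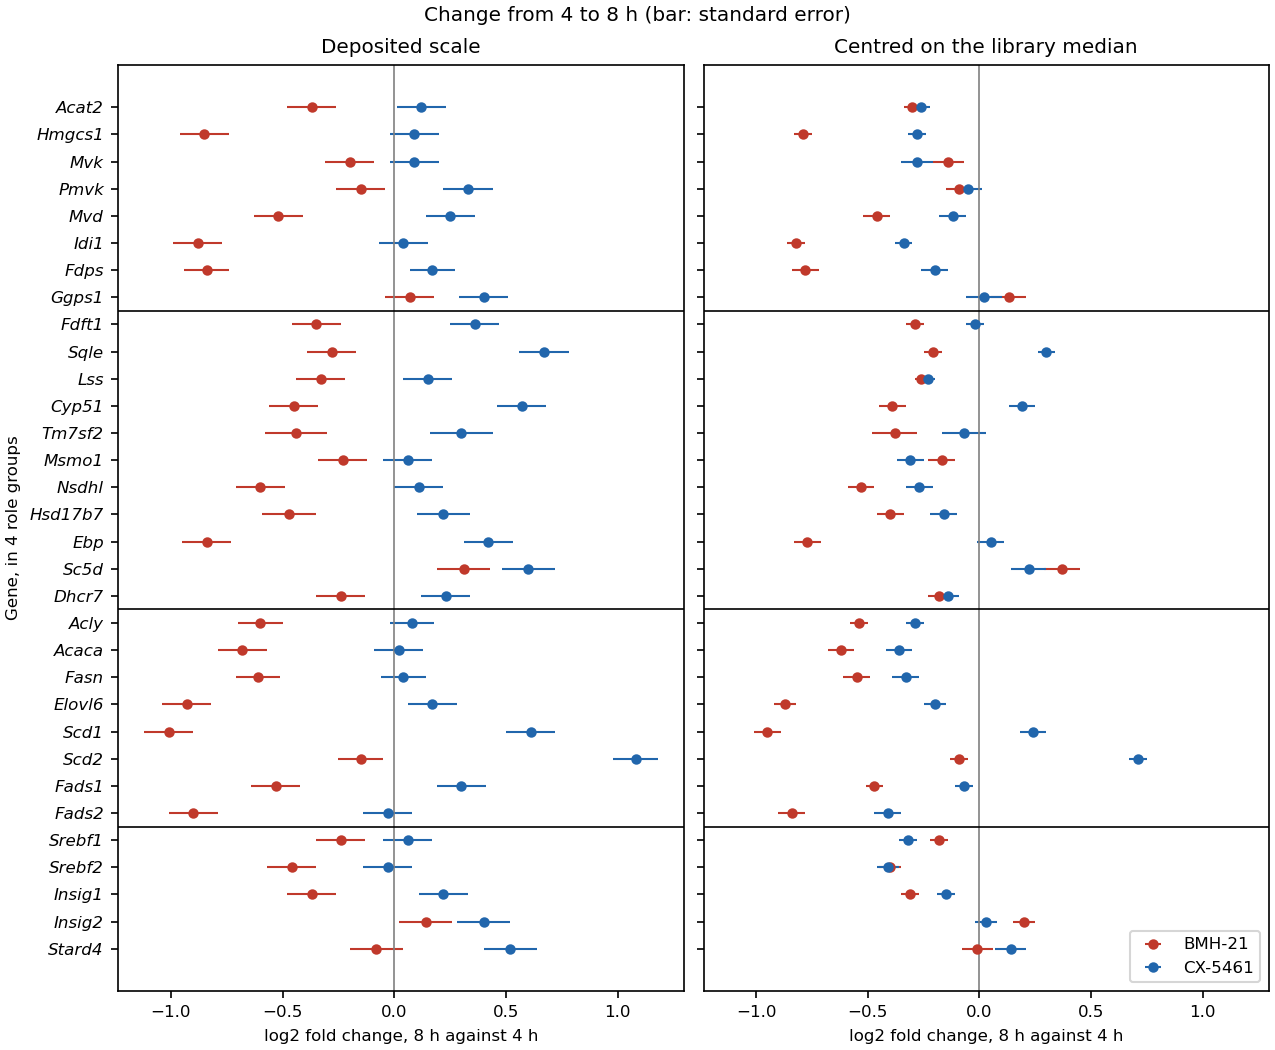
Log2 difference from 4 to 8 h (horizontal axis) for each member with BMH-21 (red) and CX-5461 (blue), 3 libraries per group, on the deposited scale (left) and after centring each library on its median (right); bars are standard errors. Scd2, Sqle, Scd1, Sc5d and Cyp51 lie right of 0 with CX-5461 in both panels, and Scd1 is the farthest left with BMH-21.

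Genes around the pathway were counted from lists of neighbouring functions. At 8 h, 24.5% of all genes were higher with BMH-21 and 56.9% lower, while for CX-5461 35.1% were higher and 14.3% lower. For BMH-21 the shares were 33.3% and 51.3% on the centred scale and 39.2% and 43.3% on the median-ratio scale. For CX-5461 they were 29.3% and 44.7%, and 35.2% and 35.3%. Of 13 genes for SREBP processing and sterol sensing, 2 rose and 8 fell at 8 h of BMH-21, and 4 rose and 2 fell at 8 h of CX-5461. The 8 that fell are 61.5% of the list, near the share of all genes lower with BMH-21. After centring 5 were higher and 7 lower with BMH-21, and 3 were higher and 7 lower with CX-5461, and with median-ratio factors 5 and 6, and 5 and 5. Scap, which escorts the SREBP precursors, rose with both (1.73, SE 0.11, adjusted p = 1.4e-31 and 1.20, SE 0.11, adjusted p = 1e-19 in limma), while Nfya, a subunit of the CCAAT-binding factor, fell with BMH-21 (-0.99, SE 0.11, adjusted p = 2e-14). Of 5 tested genes of the liver X receptor pathway, which drives sterol export, 2 rose and 1 fell with BMH-21, and 4 rose and 0 fell with CX-5461. After centring these counts were 3 and 1, and 4 and 1, and with median-ratio factors 3 and 0, and 4 and 1. The exporters Abcg1 (1.79, adjusted p = 1.5e-30 and 1.35, adjusted p = 4e-21) and Abca1 (0.76, adjusted p = 8.9e-09 and 1.07, adjusted p = 6.9e-14) were the 2 with the largest differences at 8 h of each inhibitor.

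Of 17 other lipogenic enzymes, 5 rose and 11 fell at 8 h of BMH-21, and 5 rose and 3 fell at 8 h of CX-5461. With BMH-21 these shares, 29.4% and 64.7%, were near those of all genes. After centring 5 were higher and 11 lower with BMH-21, and 5 were higher and 12 lower with CX-5461, and with median-ratio factors 6 and 11, and 5 and 9. Aacs, which makes acetoacetyl-CoA from ketone bodies, rose with both (1.45, SE 0.11, adjusted p = 4.5e-25 and 1.01, SE 0.11, adjusted p = 3.9e-15 in limma). Mid1ip1, a stimulator of acetyl-CoA carboxylase, fell with BMH-21 (-1.34, SE 0.11, adjusted p = 5e-21), and Acacb, the mitochondrial carboxylase, rose with CX-5461 (0.61, SE 0.11, adjusted p = 8.3e-07). All 8 genes that use isoprenoids, for prenylation, ubiquinone or dolichol, fell at 8 h of BMH-21, led by Pdss1 (-1.24, SE 0.12, adjusted p = 3.4e-18) and Pdss2 (-0.95, SE 0.12, adjusted p = 1.3e-11) of ubiquinone synthesis. After centring 7 of the 8 were lower and with median-ratio factors 5, with 0 higher on either scale. At 8 h of CX-5461, 2 of these 8 rose and 2 fell, or 1 and 6 after centring and 2 and 6 with median-ratio factors, with Pdss1 at -0.59 (SE 0.12, adjusted p = 7.8e-06) and Dhdds, of dolichol synthesis, at 0.41 (SE 0.11, adjusted p = 0.0015).

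Of 8 sterol uptake and trafficking genes, 3 rose and 3 fell at 8 h of BMH-21, and 6 rose and 0 fell at 8 h of CX-5461. After centring 4 were higher and 2 lower with BMH-21, and 3 were higher and 1 lower with CX-5461, and with median-ratio factors 5 and 2, and 6 and 1. Vldlr, a lipoprotein receptor, rose with both (1.29, adjusted p = 3e-07 and 0.63, adjusted p = 0.018, not called at 0.46 to 0.60 without CX-5461 8 h library 3, or control library 1, -0.08 with quantile normalization). Npc1, which exports cholesterol from lysosomes, fell with BMH-21 (-0.81, adjusted p = 1.9e-10), and Osbp, a sterol exchanger, rose with CX-5461 (0.63, adjusted p = 2.9e-07). Of 10 fatty acid oxidation genes, 4 rose and 5 fell with BMH-21 at 8 h, and 5 rose and 1 fell with CX-5461. After centring these counts were 5 and 4, and 4 and 3, and with median-ratio factors 5 and 3, and 6 and 2. Ppara, a nuclear receptor for oxidation genes, rose with both (1.68, adjusted p = 1.8e-07 and 0.74, adjusted p = 0.031, not called at 0.44 to 0.75 without CX-5461 8 h library 1, or control library 2 or 3, -1.14 with quantile normalization). Acadm, a medium-chain acyl-CoA dehydrogenase, fell with BMH-21 (-0.88, adjusted p = 6.9e-13) and Cpt2, which loads fatty acids in mitochondria, rose with CX-5461 (0.61, adjusted p = 1.5e-06). Each of the directions named for single genes in these lists was the same on the centred and median-ratio scales.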

How the data were processed

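Polyadenylated RNA was sequenced from 21 libraries with a strand-specific kit, per the labels' protocols. The authors deposited log2 expression values per gene symbol. Per the submitters' processing notes, which give no role or order, the genome build was mm10 and the tools named were Trim Galore 0.5.0, TopHat2 2.1.1, R 4.0.5, DESeq2 1.30.1, edgeR 3.32.1 and limma 3.46.0. The counting program, the annotation and the use of strand are not given in the sources used here. Each deposited log2 value matched a whole number of reads plus an offset of 0.5, within 1.7e-08 reads, divided by a library factor. The source of these factors is not given in the sources used here. A log2 value of 0 stood for 42 to 86 reads, and 3 reads for -4.63 to -3.59.

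Groups were taken from the labels. A model with 1 mean per group was fitted to the deposited log2 values with limma 3.58.1 in R 4.3.3, with moderated variances and a mean-variance trend, over 14666 genes with log2 above 0 in at least 3 libraries. It gave 13 comparisons. On the deposited scale a gene's variance had 14 residual degrees of freedom of its own and 111.5 from the trend over all genes. The SEs of the members are therefore much alike whatever their own spread. For Acaca the SD was 0.170 on its own and 0.135 after moderation, and for Pmvk 0.092 and 0.133. No member had an own variance over 2 times the moderated one. Adjusted p-values are Benjamini-Hochberg values over those genes, with a threshold of 0.05. The script was tested on simulated data. Alternatives were centring each library on its median, median-ratio factors, quantile normalization, no filter, an offset of 5 reads, no variance trend, voom weights, only the groups compared, a replicate block and leaving out each library. Libraries are numbered as in the labels.

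Per-library values were given for the 12 members with a rounded difference from control of at least 1 on the log2 scale, which Hsd17b7 reached only by rounding. They were also given for others where a sentence turns on them, chosen after their values were seen. In the neighbouring lists, the 2 genes with the largest passing differences at 8 h of each inhibitor were named, except 1 gene that is not reported here. The members and lists were chosen with earlier results of these data known. Promoter sequences are RefSeq windows on GRCm38.p6, searched on both strands.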

Additional observations from a re-analysis of the deposited data

Results flagged for a closer look

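The changes from 4 to 8 h differed between the inhibitors for a set of members in a test of the difference itself, the BMH-21 change minus the CX-5461 change, which was added after the data had been seen. Members are given here where that difference passed limma's test, adjusted over 14666 genes, on the deposited, centred and median-ratio scales alike. These were 14 of 32. By scale, members lower numbered 26, 19 and 14, and members higher 0, 2 and 4. Srebf1 (0.14 and 0.24) and Insig2 (0.17 and 0.28) were higher on the centred and median-ratio scales, and Mvk (0.24) and Msmo1 (0.25) on the median-ratio scale. The share of all genes passing was not counted, so these counts have no background beside them. From 4 to 8 h the median of all genes was -0.14 with BMH-21 and 0.34 with CX-5461 as deposited. It was -0.08 and -0.04 after centring, and 0.03 and -0.03 with median-ratio factors. Among the fatty acid enzymes the difference of changes, as deposited and in limma, was -1.63 for Scd1 (SE 0.16, adjusted p = 4e-16), -1.23 for Scd2 (adjusted p = 5.2e-12), -1.10 for Elovl6 (adjusted p = 9.8e-10), -0.87 for Fads2 (adjusted p = 1.2e-06), -0.83 for Fads1 (adjusted p = 2.5e-06) and -0.69 for Acly (adjusted p = 1.8e-05). Among the sterol enzymes it was -1.26 for Ebp (adjusted p = 5.4e-11), -1.02 for Cyp51 (adjusted p = 2.4e-08), -0.95 for Sqle (adjusted p = 7.3e-08) and -0.71 for Fdft1 (adjusted p = 2.2e-05). Among the mevalonate enzymes it was -1.01 for Fdps (adjusted p = 4.5e-09), -0.94 for Hmgcs1 (adjusted p = 5.2e-08), -0.92 for Idi1 (adjusted p = 1.7e-07) and -0.77 for Mvd (adjusted p = 6.7e-06). The other scales gave smaller values, -1.19 and -1.09 for Scd1, -0.82 and -0.72 for Ebp, -0.58 and -0.48 for Cyp51 and -0.25 and -0.15 for Acly. The 4 h and 8 h libraries of each inhibitor enter both this difference and the comparisons of the report.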

How the results depend on the processing

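Directions and calls of the 172 gene differences named in the text were followed through 9 other settings and through leaving out each library. All 172 kept both with voom weights and with an offset of 5 reads. Without the filter 5 calls were lost, without the variance trend 10, and with only the groups compared 8 were lost and 2 gained, with no sign turned. Scaling turned 12 signs after centring, 19 with median-ratio factors and 27 with quantile normalization, and the cause was not tested. Same-numbered libraries did not deviate together: 0 of 39 pairs had a correlation over 0.1 (lowest -0.251, highest 0.093), so the numbers do not pair them. With the replicate block no count of members moved by over 1.5 times (the farthest was 8 in place of 11 lower at 8 h of CX-5461), and 4 calls of named differences were lost at unchanged values: Idi1 (-0.25, adjusted p = 0.053), Cyp51 (-0.26, adjusted p = 0.056) and Fads2 (-0.26, adjusted p = 0.056) at 8 h of CX-5461 and Acat2 between the inhibitors at 4 h (0.29, adjusted p = 0.056), in limma. Counts cover 3 libraries a group, and the SE of each value draws mostly on the trend over all genes and less on those libraries.

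Values here stand in place of those of the report, and comparisons with control are named by inhibitor and time. The shares of all genes on the centred and median-ratio scales stand beside these counts in the report above. For the other settings such shares are not given, so their counts show only how calls move with the setting and not how the members compare with all genes. After centring, the members called higher numbered 15 for BMH-21 2 h, 9 for BMH-21 4 h, 4 for BMH-21 8 h, 7 for CX-5461 2 h, 4 for CX-5461 4 h, 1 for CX-5461 8 h, 4 for the inhibitors compared at 2 h, 11 for the inhibitors compared at 4 h, 7 for the inhibitors compared at 8 h, 4 for BMH-21 from 2 to 4 h, 2 for BMH-21 from 4 to 8 h, 2 for CX-5461 from 2 to 4 h and 5 for CX-5461 from 4 to 8 h. Under that setting, the members called lower numbered 3 for BMH-21 2 h, 28 for CX-5461 8 h, 1 for the inhibitors compared at 2 h, 3 for the inhibitors compared at 4 h and 18 for CX-5461 from 4 to 8 h. There the members had a median difference of -0.07 for BMH-21 4 h, -0.56 for BMH-21 8 h, 0.00 for CX-5461 2 h, -0.13 for CX-5461 4 h, -0.34 for CX-5461 8 h, -0.20 for the inhibitors compared at 8 h and -0.16 for CX-5461 from 4 to 8 h. The sign turned for Ggps1 (0.04) with BMH-21 8 h, for Lss (-0.21) and Scd2 (-0.15) with CX-5461 8 h, for Mvk (0.40), Srebf1 (0.28), Insig2 (0.26), Ggps1 (0.26), Acat2 (0.23), Pmvk (0.12), Msmo1 (0.14) and Srebf2 (0.11) for the inhibitors compared at 8 h, for Fads1 (-0.07) with CX-5461 from 4 to 8 h. With median-ratio factors, the members called higher numbered 15 for BMH-21 2 h, 9 for BMH-21 4 h, 6 for BMH-21 8 h, 9 for CX-5461 2 h, 10 for CX-5461 4 h, 1 for the inhibitors compared at 2 h, 7 for the inhibitors compared at 4 h, 8 for the inhibitors compared at 8 h, 5 for BMH-21 from 2 to 4 h, 3 for BMH-21 from 4 to 8 h, 3 for CX-5461 from 2 to 4 h and 5 for CX-5461 from 4 to 8 h. Under that setting, the members called lower numbered 1 for CX-5461 2 h, 22 for CX-5461 8 h, 1 for the inhibitors compared at 2 h, 5 for the inhibitors compared at 4 h, 17 for the inhibitors compared at 8 h and 17 for CX-5461 from 4 to 8 h. There the members had a median difference of -0.03 for BMH-21 4 h, -0.42 for BMH-21 8 h, 0.04 for CX-5461 2 h, -0.04 for CX-5461 4 h, -0.15 for the inhibitors compared at 8 h, -0.27 for BMH-21 from 4 to 8 h and -0.15 for CX-5461 from 4 to 8 h. The sign turned for Idi1 (0.02) and Elovl6 (0.03) with BMH-21 4 h, for Acat2 (0.12), Ggps1 (0.18) and Msmo1 (0.11) with BMH-21 8 h, for Lss (-0.11) and Scd2 (-0.05) with CX-5461 8 h, for Fads2 (0.02) and Fasn (0.02) with CX-5461 4 h, for Mvk (0.44), Srebf1 (0.33), Insig2 (0.31), Ggps1 (0.31), Acat2 (0.28), Pmvk (0.17), Msmo1 (0.19) and Srebf2 (0.15) for the inhibitors compared at 8 h, for Scd2 (0.03) with BMH-21 from 4 to 8 h, for Fads1 (-0.06) with CX-5461 from 4 to 8 h. With quantile normalization, the members called higher numbered 12 for BMH-21 2 h, 9 for BMH-21 4 h, 6 for BMH-21 8 h, 8 for CX-5461 2 h, 9 for CX-5461 4 h, 5 for CX-5461 8 h, 1 for the inhibitors compared at 2 h, 5 for the inhibitors compared at 4 h, 8 for the inhibitors compared at 8 h, 6 for BMH-21 from 2 to 4 h, 4 for BMH-21 from 4 to 8 h, 3 for CX-5461 from 2 to 4 h and 5 for CX-5461 from 4 to 8 h. Under that setting, the members called lower numbered 1 for CX-5461 2 h, 17 for CX-5461 8 h, 1 for the inhibitors compared at 2 h, 6 for the inhibitors compared at 4 h and 14 for CX-5461 from 4 to 8 h. There the members had a median difference of -0.01 for BMH-21 4 h, -0.44 for BMH-21 8 h, 0.03 for CX-5461 2 h, -0.04 for CX-5461 4 h, -0.22 for the inhibitors compared at 8 h, -0.08 for BMH-21 from 2 to 4 h, -0.18 for BMH-21 from 4 to 8 h and -0.12 for CX-5461 from 4 to 8 h. The sign turned for Idi1 (0.06), Fdps (0.05) and Elovl6 (0.08) with BMH-21 4 h, for Idi1 (0.04), Fdft1 (0.07), Fads2 (0.00) and Fasn (0.11) with CX-5461 4 h, for Hmgcs1 (0.00), Acat2 (0.25), Ggps1 (0.14), Msmo1 (0.09), Acly (0.11) and Srebf2 (0.05) with BMH-21 8 h, for Lss (-0.03), Acly (0.17), Vldlr (-0.08) and Ppara (-1.14) with CX-5461 8 h, for Mvk (0.43), Srebf1 (0.32), Insig2 (0.29), Ggps1 (0.29), Acat2 (0.25), Pmvk (0.15), Msmo1 (0.16) and Srebf2 (0.13) for the inhibitors compared at 8 h, for Scd2 (0.22) with BMH-21 from 4 to 8 h, for Fads1 (-0.06) with CX-5461 from 4 to 8 h. Without the mean-variance trend, the members called higher numbered 1 for BMH-21 2 h and 0 for BMH-21 from 4 to 8 h. Under that setting, the members called lower numbered 3 for CX-5461 2 h, 7 for CX-5461 8 h and 0 for the inhibitors compared at 4 h. Without the filter on low values, the members called higher numbered 0 for BMH-21 from 4 to 8 h. Under that setting, the members called lower numbered 3 for CX-5461 2 h and 0 for the inhibitors compared at 4 h. With only the groups compared in the fit, the members called higher numbered 0 for BMH-21 from 4 to 8 h. Under that setting, the members called lower numbered 0 for the inhibitors compared at 4 h. With voom weights, the members called higher numbered 1 for BMH-21 from 2 to 4 h. With 1 library left out, the members called higher ranged over 1 to 2 for BMH-21 2 h, 0 to 4 for BMH-21 4 h, 1 to 2 for CX-5461 8 h, 0 to 1 for the inhibitors compared at 2 h, 0 to 5 for the inhibitors compared at 4 h, 0 to 2 for BMH-21 from 2 to 4 h and 0 to 1 for BMH-21 from 4 to 8 h. Likewise, those called lower over 0 to 6 for CX-5461 2 h, 4 to 10 for CX-5461 8 h and 0 to 1 for the inhibitors compared at 4 h. The median at BMH-21 8 h ranged from -0.86 to -0.62, and Lss with CX-5461 8 h from -0.05 to 0.05, Acly with BMH-21 2 h from -0.01 to 0.13, Acly with BMH-21 4 h from -0.10 to 0.06, Stard4 with CX-5461 8 h from -0.06 to 0.06, Srebf1 with BMH-21 8 h from -0.02 to 0.13 and Mvk with the inhibitors compared at 8 h from -0.08 to 0.01.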
